A study of Mus musculus with 4 samples.

Results

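Vascular endothelial growth factors (VEGFs), their receptors and the inhibitor PEDF were examined in mouse embryonic stem (ES) cells with and without knock down of FBL. The group held 10 genes of the 17016 named on the arrays. Its 4 ligand genes were Vegfa, Vegfb, Vegfc and Pgf, its 3 receptor genes Kdr, Flt1 and Flt4, its 2 co-receptor genes Nrp1 and Nrp2, and its 1 inhibitor gene Serpinf1, which encodes PEDF. Every probe whose RefSeq transcript belonged to 1 of these genes was kept, which gave 16 probes. The genes were put forward with results of the same contrast known, so that their differences are given as a description, with no p-value, and the number of probes past the threshold of the fit is only set beside that of all probes.

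VEGF ligands are secreted proteins that bind receptor tyrosine kinases on endothelial cells and their precursors and drive the growth of blood and lymph vessels. Neuropilins are co-receptors that bind some VEGFs and also class 3 semaphorins. PEDF, a secreted member of the serpin family that does not inhibit proteases, acts against vessel growth. In early mouse embryos Kdr marks mesoderm that gives rise to blood and endothelium, and cultured ES cells secrete VEGF. FBL is fibrillarin, the nucleolar methyltransferase that places 2′-O-methyl groups on ribosomal RNA.

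All 4 samples came from the same kind of ES cells, which carry an FBL knock down switched by tetracycline (Tc), and were kept with leukaemia inhibitory factor (LIF) on gelatin. The 2 FBL-knock down samples were grown without Tc for 2 days. The 2 control samples were grown for 2 days with Tc. The growth notes of all 4 samples give a dose of 1000 ng/mL, while the treatment notes say that FBL-knock down samples had no Tc, so the dose is taken here as that of the controls. Tc and FBL level therefore differ together between the groups and cannot be told apart. The labels do not say whether samples of a group came from separate cultures or clones, so the spread between them may be technical.

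Each sample was read on 1 single-colour Agilent array. A value is a log2 signal relative to the 75th percentile of its own array, so that 0 is the 75th percentile and negative values lie below it. The difference is FBL-knock down minus control, and its SE comes from a limma fit across 25095 probes that cleared background on both arrays of 1 or both groups. Fbl itself had 5.98 and 5.94 in FBL-knock down cells, against 8.63 and 8.12 in control cells. It fell by 2.41 ± 0.25 (SE, n = 2 each), a 5.32-fold change (limma, adjusted p = 4.97e-04). The share of probes well above background lay between 59.5% and 64.1% over the arrays, and no spot was saturated. FBL-knock down 1 and both controls shared 1 slide, and FBL-knock down 2 was alone on the other slide. The difference within the shared slide is therefore that of FBL-knock down 1 against both controls.

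The promoters of the member genes with the largest differences are shown to let their sequence be set beside the values. They are the 250 bases before the RefSeq transcription start (GRCm38.p6), on the strand of the gene. Capitals mark matches, on either strand, to the GC box GGGCGG, the CCAAT box, the TATA box TATAAA, the hypoxia response element core ACGTG, or the C/EBP-ATF response element TGATGNAA. These motifs were chosen with the fall of Atf4, described further on, already known. The Vegfa window lies at chr17:46032378-46032627, minus strand, and the Serpinf1 window at chr11:75422624-75422873, minus strand; these genes were lower in FBL-knock down cells. The Kdr window lies at chr5:75978456-75978705 and the Flt1 window at chr5:147726012-147726261, both on the minus strand; these genes were higher.
Vegfa: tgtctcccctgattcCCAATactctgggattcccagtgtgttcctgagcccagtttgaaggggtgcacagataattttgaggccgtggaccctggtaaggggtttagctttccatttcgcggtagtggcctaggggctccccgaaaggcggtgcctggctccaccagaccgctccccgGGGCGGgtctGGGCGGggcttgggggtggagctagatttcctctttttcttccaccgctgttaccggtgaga
Serpinf1: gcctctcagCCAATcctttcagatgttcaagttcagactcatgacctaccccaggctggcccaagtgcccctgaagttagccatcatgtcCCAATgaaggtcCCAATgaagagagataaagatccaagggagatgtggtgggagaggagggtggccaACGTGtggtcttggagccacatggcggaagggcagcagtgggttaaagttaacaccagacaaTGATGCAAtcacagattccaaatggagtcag
Kdr: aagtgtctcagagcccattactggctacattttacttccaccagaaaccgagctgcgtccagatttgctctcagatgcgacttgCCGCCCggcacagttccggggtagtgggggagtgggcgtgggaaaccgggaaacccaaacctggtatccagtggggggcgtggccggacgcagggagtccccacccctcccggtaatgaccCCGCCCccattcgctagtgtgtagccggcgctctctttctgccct
Flt1: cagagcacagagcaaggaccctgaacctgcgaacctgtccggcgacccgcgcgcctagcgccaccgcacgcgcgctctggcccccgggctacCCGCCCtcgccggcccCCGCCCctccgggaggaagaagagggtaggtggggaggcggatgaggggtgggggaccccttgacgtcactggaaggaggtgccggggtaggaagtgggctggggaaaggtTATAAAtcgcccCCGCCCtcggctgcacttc

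The Vegfa window held 2 GC boxes, 62 and 72 bases before the start, and 1 CCAAT box. A further RefSeq start of Vegfa, with its window at chr17:46025164-46025413, held 1 GC box, 1 CCAAT box and 1 hypoxia response element core. That window lies downstream of the first start, inside the gene, so its hypoxia core is not part of the sequence before the first start. The Serpinf1 window held 3 CCAAT boxes, 1 hypoxia response element core 93 bases before the start and 1 C/EBP-ATF response element 31 bases before it, and no GC box. The Kdr window held 2 GC boxes, and the Flt1 window held 3 GC boxes and a TATA box 31 bases before the start.

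Over all 12 RefSeq starts of the 10 genes, a GC box was present at 10 starts, of 9 genes, the exception among genes being Serpinf1. The same window held a GC box in 32.74% of 32851 promoters. The C/EBP-ATF element occurred at 1 of the 12 starts, against 3.452% of all promoters, and the hypoxia core at 2 against 16.57%. Of these 2 starts, 1 was the further Vegfa start, whose window lies inside the gene. The TATA box occurred at 1 against 12.37%, and the CCAAT box at 3 against 33.85%. The member windows were rich in G and C: their GC content ran from 51.6% (Serpinf1) to 76.4% (Vegfb), and 9 of the 12 exceeded the upper quartile of all promoters, 61.2%, whose median was 52.4%. The part of GC content in the number of GC box matches was not tested. A match is a run of letters and does not show that a factor binds there, and the absence of a match concerns these windows only.

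**Figure D1:**
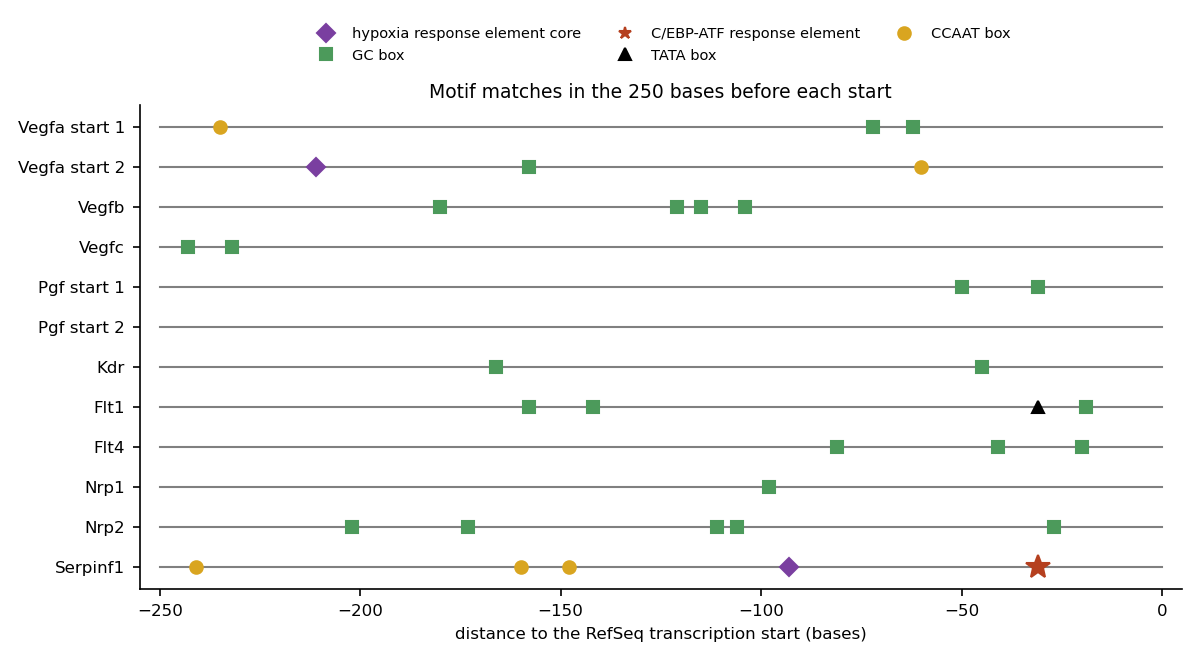
Matches to 5 motifs (symbols) in the 250 bases before each of the 12 RefSeq starts of the 10 genes, by distance to the start in bases. GC boxes appear at 10 starts; Serpinf1 has none and is the only member with a C/EBP-ATF response element match, 31 bases before its start.

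Of the 16 probes, 12 were well above background on all 4 arrays, covering 8 genes, and 4 were above background on none. Among those 12 probes, 8 passed the limma threshold of 0.05 on the adjusted p, compared with 6.17% of all probes tested. Of these, 5 were lower in FBL-knock down cells, where 2.46% of all probes were, and 3 were higher, where 3.71% of all probes were. A difference of at least 1 on the log2 scale was present at 7 of the 12 probes, and at 6.53% of all probes. The groups did not overlap at 11 of the 12, and at 51.4% of all probes. Because the genes were chosen on this contrast, nothing is read from these counts. The median difference of the 12 probes was −0.29, and that of all probes tested was −0.06.

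**Figure D2:**
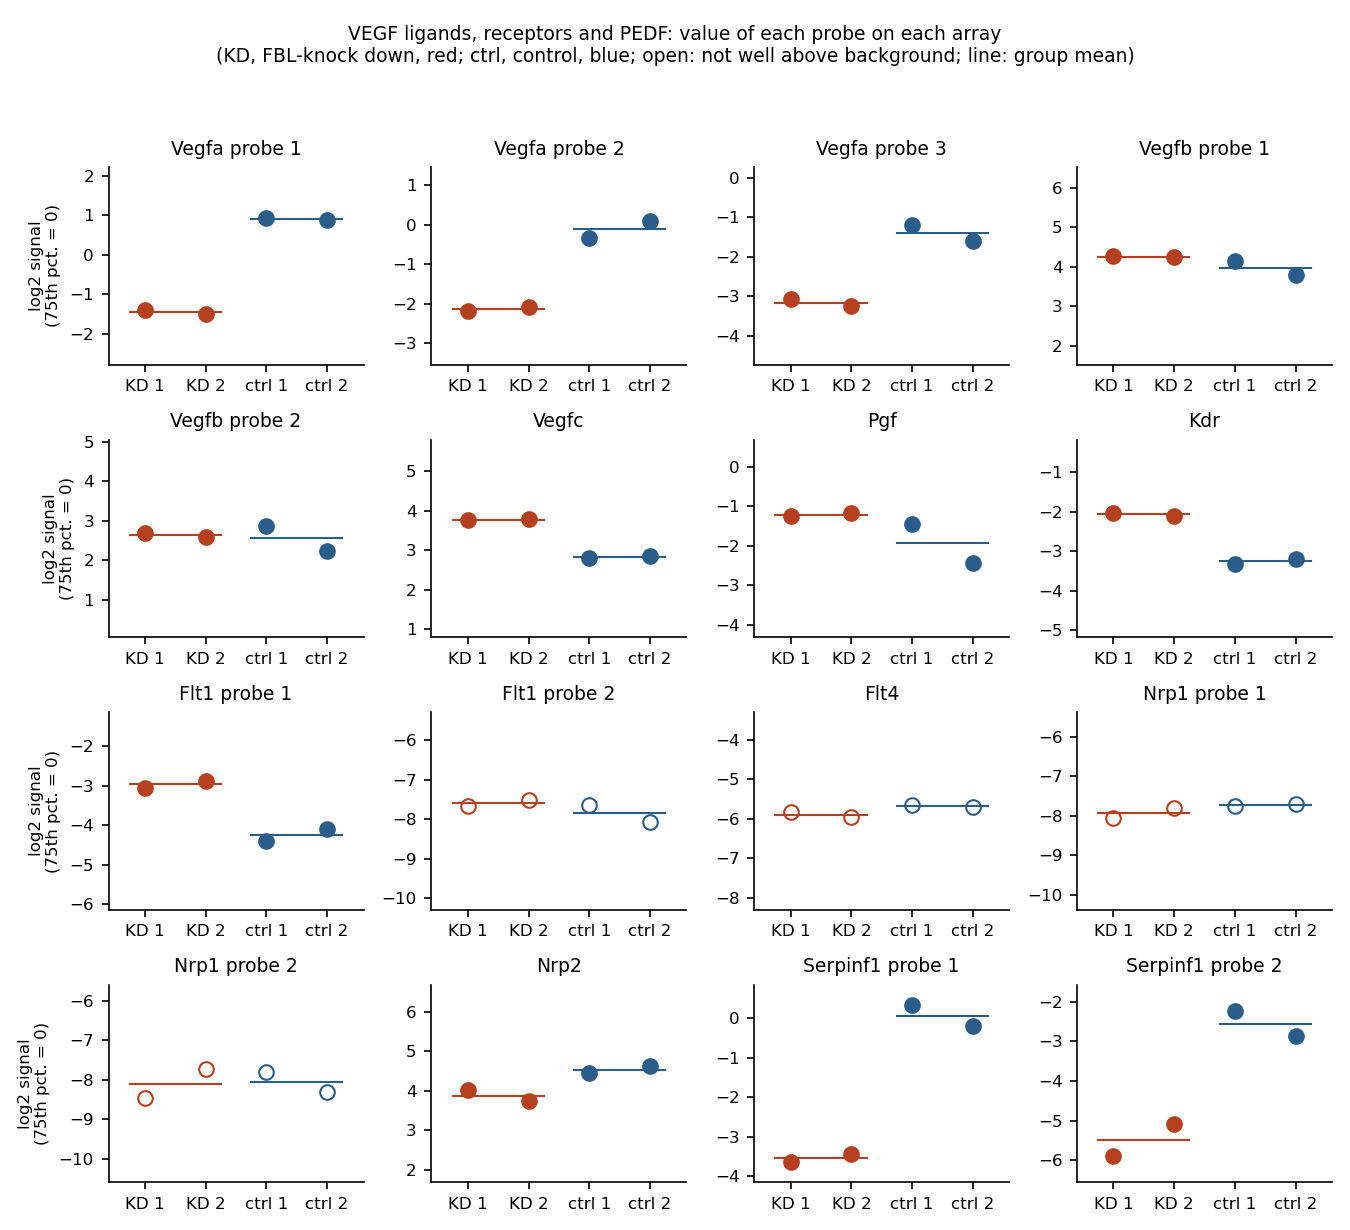
Log2 signal (75th percentile of the array = 0) of each of the 16 probes on each array, FBL-knock down (KD, red) left of control (ctrl, blue); lines are group means, and open points mark probes not well above background. All panels span the same height. The 3 Vegfa and 2 Serpinf1 probes lie lower in FBL-knock down cells, and Vegfc, Kdr and the brighter Flt1 probe lie higher.

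Vegfa, the main ligand of the family, was lower in FBL-knock down cells by all of its 3 probes. Probe A_51_P482552 had −1.39 and −1.50 in FBL-knock down cells, against 0.94 and 0.88 in control cells. The groups lay far apart relative to the gap between samples of a group, and the difference was −2.36 ± 0.22 (SE, n = 2 each), a 5.12-fold lower level.

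That probe is printed at 10 spots on every array, so its reading error could be seen directly. The spots had a median of −1.41 on FBL-knock down 1 and −1.50 on FBL-knock down 2, against 0.96 on control 1 and 0.88 on control 2. The highest of the FBL-knock down spots was at −1.27, and the lowest of the control spots at 0.65. The SD over spots of an array was between 0.07 and 0.10. Spots of 1 array share the same labelled RNA and are not replicates of the condition.

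The second probe, A_52_P638895, had −2.18 and −2.10 in FBL-knock down cells, against −0.33 and 0.09 in control cells. Its difference was −2.02 ± 0.24, which is 4.04-fold lower. The third, A_52_P249424, had −3.07 and −3.25 in FBL-knock down cells, against −1.20 and −1.61 in control cells, with a difference of −1.76 ± 0.24, or 3.39-fold lower. All 3 probes are annotated to the same transcript, and no group overlapped at any of them. Within the shared slide the differences were −2.30, −2.06 and −1.67. With normexp, a background correction with an offset of 50 added to every signal, which weighs most on dim ones, they were −1.92, −1.16 and −1.02.

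**Figure D3:**
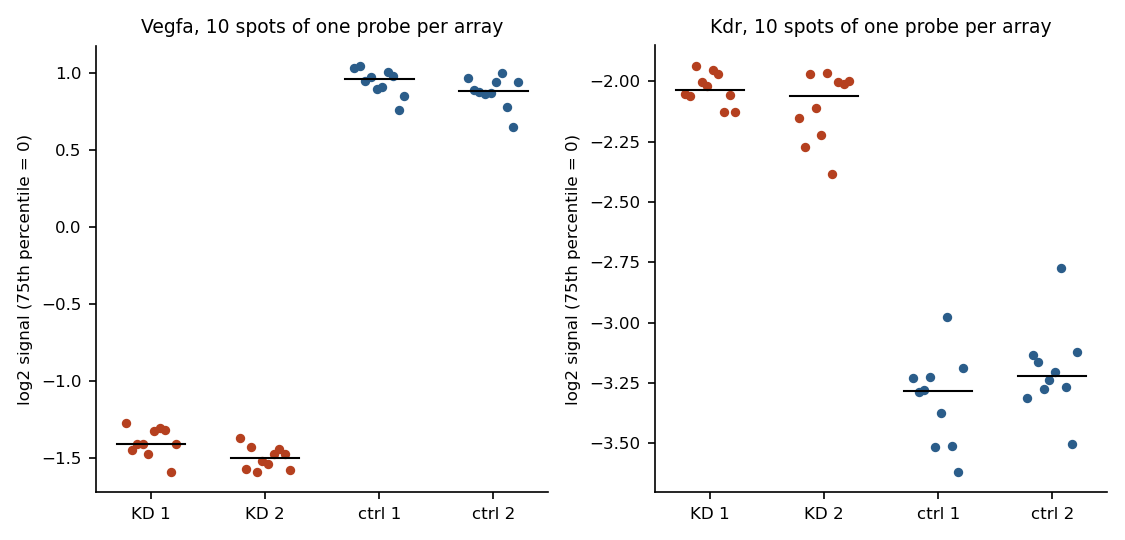
Log2 signal (75th percentile of the array = 0) of the 10 spots of the Vegfa probe A_51_P482552 and of the Kdr probe A_51_P316553 on each array, FBL-knock down (KD, red) left of control (ctrl, blue); black lines are medians. For Vegfa all FBL-knock down spots lie below all control spots, and for Kdr all lie above them.

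The other ligands did not share this direction. Vegfc, a ligand of Flt4 best known for the growth of lymph vessels, had 3.76 and 3.78 in FBL-knock down cells, against 2.81 and 2.86 in control cells. It was 1.91-fold higher, a difference of 0.94 ± 0.22, and the gap between groups was many times that between samples of a group. Within the shared slide the difference was 0.93.

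Pgf encodes placental growth factor, which binds Flt1 and not Kdr. It had −1.26 and −1.18 in FBL-knock down cells, against −1.44 and −2.44 in control cells. The controls lay further from each other than control 1 from either FBL-knock down sample. The difference of 0.72 ± 0.32 was 0.22 without control 2 and 1.22 without control 1.

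For Vegfb, another Flt1 ligand, the groups differed by little more than the SE at 1 probe and by less at the other. Its brighter probe, A_51_P458168, had 4.27 and 4.24 in FBL-knock down cells, against 4.15 and 3.78 in control cells, a difference of 0.29 ± 0.24. It was 0.47 without control 1 and 0.10 without control 2. The other, A_52_P436628, had 2.68 and 2.59 in FBL-knock down cells, against 2.87 and 2.23 in control cells. Here the groups overlapped, and the difference of 0.08 ± 0.26 was 0.41 without control 1 and −0.24 without control 2.

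Kdr, the main signalling receptor for Vegfa, was higher in FBL-knock down cells. It had −2.03 and −2.11 in FBL-knock down cells, against −3.32 and −3.20 in control cells. The difference was 1.19 ± 0.22 (SE, n = 2 each), or 2.28-fold higher, and within the shared slide it was 1.23. This probe also had 10 spots per array, with medians of −2.04 and −2.06 on the FBL-knock down arrays, against −3.28 and −3.22 on the control arrays. The lowest FBL-knock down spot was at −2.38 and the highest control spot at −2.77, so the spots did not overlap after scaling. Under normexp the difference was 0.76.

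Flt1, a receptor that binds Vegfa tightly and also exists in a soluble form that traps it, was higher by its probe A_51_P398723. The values were −3.06 and −2.88 in FBL-knock down cells, against −4.41 and −4.09 in control cells. The difference was 1.28 ± 0.23, or 2.43-fold higher, with 1.19 within the shared slide and 0.64 under normexp. The other Flt1 probe, A_52_P520859, was not well above background on any array, so the higher level rests on 1 probe. The sources used here do not say whether either probe reads the soluble or the membrane-bound form.

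Flt4, the receptor for Vegfc, and the co-receptor Nrp1, by both of its probes, were not well above background on any of the 4 arrays, and no fold is given for them. The measured Flt4 values were −5.84 and −5.97 in FBL-knock down cells, against −5.64 and −5.69 in control cells. The Nrp1 probes lay between −8.48 and −7.73 in FBL-knock down cells and between −8.30 and −7.69 in control cells. Such values do not show whether the gene was expressed at a low level or not at all.

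Nrp2, the co-receptor that binds Vegfc, was read well above background on every array. It had 4.01 and 3.73 in FBL-knock down cells, against 4.45 and 4.63 in control cells. The difference was −0.66 ± 0.23, or 1.58-fold lower. The groups did not overlap, and leaving out 1 array at a time gave between −0.80 and −0.52.

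Serpinf1 had the largest difference of the 10 genes. Probe A_51_P517075 had −3.65 and −3.44 in FBL-knock down cells, against 0.34 and −0.20 in control cells. The difference was −3.61 ± 0.26 (SE, n = 2 each), a 12.2-fold lower level. Before scaling, its processed signals were 50.4 and 46.2 in FBL-knock down cells, against 705.8 and 696.5 in control cells.

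The second Serpinf1 probe, A_52_P35048, was dimmer. It had −5.91 and −5.08 in FBL-knock down cells, against −2.23 and −2.87 in control cells, a difference of −2.95 ± 0.32, or 7.71-fold lower. Its processed signals in FBL-knock down cells were 10.5 and 14.8, close to the dimmest signals called above background, which were 8.57 and 10.97 on those arrays. In control cells they were 119.5 and 109.5. Normexp with its offset of 50, which exceeds the FBL-knock down signals, gave −0.59 for this probe and −2.27 for the brighter one. With any 1 array left out, the difference was −3.88 to −3.34 for the brighter probe and −3.36 to −2.53 for the dimmer. The groups did not overlap at either probe, so leaving out an array could not change the sign.

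**Figure D4:**
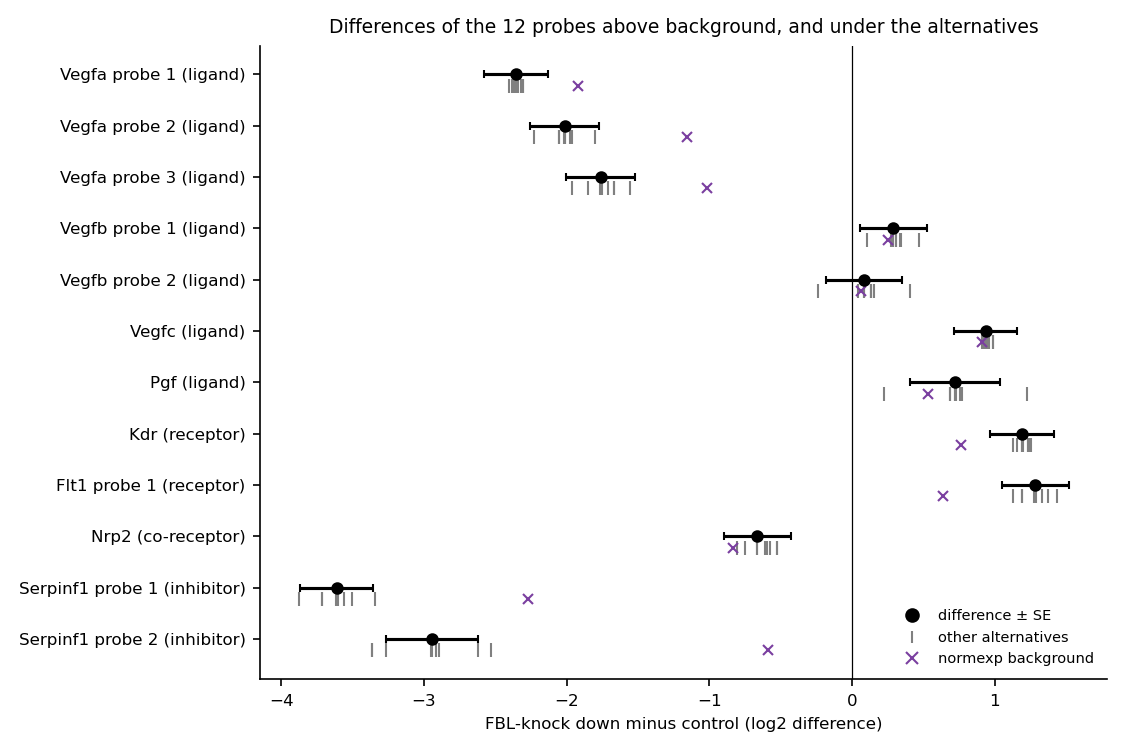
FBL-knock down minus control (log2 difference) for the 12 probes above background, ordered by role: points with bars are the difference ± SE, grey ticks the differences under the other alternatives, and purple crosses those under normexp. Vegfa and Serpinf1 lie below 0 at every setting, and Vegfc, Kdr and Flt1 above 0. The dimmer Vegfb probe, whose groups overlap, lies on both sides. Where the groups do not overlap, leaving out an array cannot change the side.

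The 5 probes nearest to Vegfa in their pattern over the 4 arrays, by Euclidean distance between centred log2 values among 17183 probes of other genes, were those of Jdp2 (distance 0.19), Adgrd1 (0.24), Sox7 (0.24), Gpt2 (0.31) and Fbl (0.32). Their differences lay between −2.41 and −2.05. Jdp2 encodes a repressor of the AP-1 family, Adgrd1 an adhesion G protein-coupled receptor, Sox7 a transcription factor and Gpt2 the mitochondrial alanine aminotransferase. For Serpinf1 the nearest were Chac1 (0.23), a glutathione-degrading enzyme, then Nupr1 (0.75), a stress-induced chromatin protein, Fbl (1.21), Vegfa itself (1.32) and Inhbe (1.34), an inhibin subunit. Chac1 differed by −3.40 and Nupr1 by −4.29. With 4 arrays in 2 groups, such distances mainly order probes by the size of their difference.

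Other genes of the pathway were taken from 11 lists of 236 genes in all, of which 190 could be tested by their brightest probe. Over these lists 15 genes rose and 6 fell, and the figures for all probes, 3.71% and 2.46%, are given above. The lists were written with earlier results of these data known.

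Of 46 tested genes of signal transduction below the VEGF receptors, 1 rose and 1 fell, with a median difference of −0.07 against −0.06 for all probes. Pla2g4a, the cytosolic phospholipase that releases arachidonic acid, had −3.75 and −3.80 in FBL-knock down cells, against −6.05 and −5.65 in control cells, and rose by 2.08 ± 0.24 (limma, adjusted p = 8.88e-04). It was well above background on 1 of the control arrays, so it entered the test only through the FBL-knock down arrays. Its call rests partly on a control value below background. Under normexp the difference was 0.62 and did not pass (limma, adjusted p = 0.106). Rac2, a small GTPase best known from blood cells, fell by 1.20 ± 0.23 (limma, adjusted p = 0.0146). Its call was lost within the shared slide (−1.32), without FBL-knock down 1 (−1.07) and under normexp (−0.37).

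Among 19 regulators of Vegfa transcription and messenger RNA stability, none rose and 1 fell, and the median was −0.13. Atf4, a transcription factor of the amino acid and endoplasmic reticulum stress responses, had 2.36 and 2.45 in FBL-knock down cells, against 4.14 and 3.79 in control cells. It fell by 1.56 ± 0.23 (limma, adjusted p = 0.00363) and kept between −1.73 and −1.39 over all alternatives. Hif1a, named here for its role as the oxygen-regulated activator of Vegfa and after its value was seen, differed by −0.13 ± 0.30 (limma, adjusted p = 0.864).

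Of 28 other hypoxia target genes 2 rose and none fell, with a median of −0.28. Ddit4, an inhibitor of mTORC1 that also responds to other stresses, had 7.22 on both FBL-knock down arrays, against 5.83 and 5.28 in control cells, and rose by 1.67 ± 0.25 (limma, adjusted p = 0.00371). Pfkfb4, a regulator of glycolysis, rose by 0.92 ± 0.23 (limma, adjusted p = 0.0441), a call lost within the shared slide (0.91) and without FBL-knock down 1 (0.93). Both lay opposite to most of the list, in which 19 of 28 differences were below 0, compared with 55.88% of all probes tested.

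Of 7 semaphorins, plexins and partners of the neuropilins, none passed by its brightest probe, and the median was −0.06. The brightest of them were Gipc1, an adaptor that binds the neuropilin tail, with −0.19 ± 0.27, and the plexin Plxna1, with 0.29 ± 0.29. For both the groups overlapped, and leaving out 1 control array turned the sign, to 0.17 for Gipc1 without control 1 and to −0.11 for Plxna1 without control 2. Sema3e, named after its value was seen, differed by 0.72 at its brightest probe and by 1.07 at its other tested probe.

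Of 27 other angiogenic and anti-angiogenic factors 4 rose and 1 fell, with a median of 0.07. The chemokine receptor Cxcr4 rose by 2.09 ± 0.24 (limma, adjusted p = 8.25e-04) and its ligand Cxcl12 by 1.46 ± 0.22 (limma, adjusted p = 0.00415). Cxcr4 had −3.50 and −3.22 in FBL-knock down cells, against −5.32 and −5.57 in control cells. Cxcl12 had −3.40 and −3.34 in FBL-knock down cells, against −4.74 and −4.92 in control cells. Under normexp they differed by 0.78 and 0.56, and Cxcl12 did not pass there or within the shared slide (1.42). Ccn1, a matrix protein that promotes vessel growth, rose by 1.30 ± 0.23 (limma, adjusted p = 0.01001), and Pdgfc, a platelet-derived growth factor, fell by 0.88 ± 0.22 (limma, adjusted p = 0.0446). Both calls were lost within the shared slide, at 1.27 and −0.87, and without FBL-knock down 1, at 1.33 and −0.90; that of Pdgfc was also lost with quantile normalization (−0.85) and with the percentile taken over bright probes (−0.83). Jag1, a Notch ligand, was the other gene that rose.

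Of 11 PEDF receptors and related serpins 3 rose and none fell, with a median of 0.18. Serpine2, a thrombin inhibitor also called protease nexin, had 0.47 and 0.54 in FBL-knock down cells, against −2.10 and −2.37 in control cells. It rose by 2.74 ± 0.23, or 6.69-fold (limma, adjusted p = 2.38e-04). Serping1, the C1 esterase inhibitor, rose by 1.36 ± 0.23 (limma, adjusted p = 0.00621), opposite in direction to Serpinf1, as was Serpine2. The call of Serping1 was lost within the shared slide, at 1.40, and without FBL-knock down 1, at 1.33. The proposed PEDF receptors Pnpla2, Rpsa and Lrp6, named for their role after their values were seen, differed by −0.02, 0.18 and −0.04 and did not pass.

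**Figure D5:**
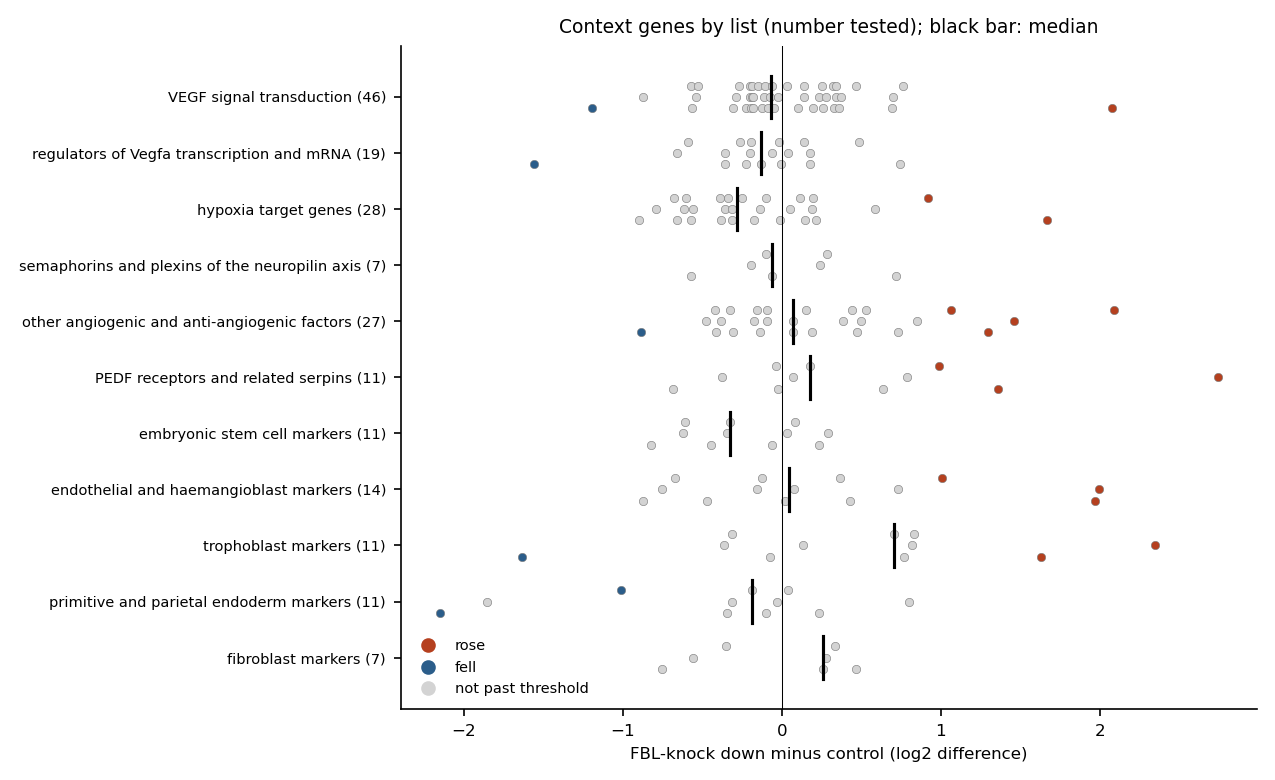
FBL-knock down minus control (log2 difference) of every tested gene in the 11 lists, with the number tested in brackets; red genes rose and blue genes fell at a limma adjusted p under 0.05, grey genes did not pass, and black bars are medians. Of 190 genes 15 rose and 6 fell, and the trophoblast list has the highest median, 0.71.

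All 11 measured markers of the labelled cell type, ES cells, were well above background on all 4 arrays. None passed the test, and the median difference was −0.32. Nanog, a pluripotency factor named after its value was seen, had the largest difference, −0.82 ± 0.22 (limma, adjusted p = 0.0616). It had 3.55 and 3.38 in FBL-knock down cells, against 4.29 on both control arrays. Dppa5a differed by 0.24 ± 0.27, with −0.04 within the shared slide and 0.51 without FBL-knock down 1, and Zfp42 by −0.61 ± 0.24 (limma, adjusted p = 0.185), which passed without control 1, at −0.80. In bulk RNA, fewer cells of a type and less RNA per cell cannot be told apart.

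Because Kdr and Flt1 are also expressed by endothelial precursors, trophoblast and other cells, markers of these cells were read beside them. Of 14 endothelial and haemangioblast markers tested 3 rose and none fell, with a median of 0.05. Eng, a TGF-beta co-receptor, rose by 1.99 ± 0.27 (limma, adjusted p = 0.00197), Mmrn2, a matrix protein around vessels, by 1.97 ± 0.23 (limma, adjusted p = 9.17e-04), and Cldn5, a tight junction protein, by 1.01 ± 0.26 (limma, adjusted p = 0.0480). The call of Cldn5 was lost within the shared slide (0.97), without FBL-knock down 1 (1.04), with quantile normalization (1.02) and with scanner signals (1.002). The listed genes Cdh5, Emcn, Erg, Lyve1, Prox1 and Lmo2 were not well above background on any array. The 14 tested markers, Pecam1, Tek and Vwf among them, were well above background on every array. The summed level of the list, in multiples of the array's 75th percentile, was 58.12 and 59.67 in FBL-knock down cells, against 37.95 and 27.55 in control cells. Without Mmrn2 it was 33.3 and 34.6 in FBL-knock down cells, against 31.0 and 21.8 in control cells, and 6 of the 14 differences were below 0.

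Of 11 trophoblast markers 2 rose and 1 fell, with a median of 0.71. The summed level of the list was 34.1 and 30.9 in FBL-knock down cells, against 26.4 and 20.9 in control cells. Tfap2c, named after its value was seen, was the brightest of the list and weighs most on that sum. It had 4.61 and 4.37 in FBL-knock down cells, against 3.79 and 3.55 in control cells, and did not pass (limma, adjusted p = 0.0728). The sum without Tfap2c was not taken, so a higher level of the list as a whole is not shown. Krt7, a keratin of simple epithelia, rose by 1.63 ± 0.25 (limma, adjusted p = 0.00421), and by 0.9996 under normexp. Gcm1, a transcription factor of the placental labyrinth, was not well above background in either control and was at least 2.27-fold higher (limma, adjusted p = 0.0120). It entered the test only through the FBL-knock down arrays, so its call rests on control values below background. The bound sets the FBL-knock down mean against the dimmest signal called above background on each control array, or the probe's own value where higher. Gcm1 did not pass under normexp. Elf5, a trophoblast stem cell factor read above background on 1 FBL-knock down array, fell by 1.63 ± 0.35 (limma, adjusted p = 0.0236). It entered the test only through the control arrays, so its call rests partly on an FBL-knock down value below background. Its call was lost, without a change of sign, with quantile normalization, with the percentile over bright probes and with no filter. The same held within the shared slide (−1.03), without control 1 (−1.75) and without control 2 (−1.51). Under normexp the difference of Elf5 was 0.13. Tpbpa was not above background on any array.

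Of 11 primitive and parietal endoderm markers, each by its brightest probe, none rose and 2 fell, with a median of −0.19. The summed level of the list was 19.3 and 18.3 in FBL-knock down cells, against 23.3 and 21.0 in control cells. Sparc, named after its value was seen, was the brightest of the list and weighs most on that sum. It differed by −0.19 at its brightest probe and by 0.04 at its other tested probe, and did not pass by its brightest probe. The sum without Sparc was not taken, so a lower level of the list as a whole is not shown. Sox17, named after its value was seen, differed by 0.80 at its brightest probe and by 1.86 at its other tested probe. Sox7 fell by 2.15 ± 0.22 (limma, adjusted p = 4.97e-04), with −0.20 under normexp, where it did not pass. Lama1, a basement membrane laminin, fell by 1.01 ± 0.22 (limma, adjusted p = 0.0259), a call lost within the shared slide (−0.999) and without FBL-knock down 1 (−1.02). Afp, Ttr and Pdgfra were not above background on any array.

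Of 7 fibroblast markers none passed by its brightest probe, with a median of 0.26, and Col3a1, Dcn and Postn were not above background on any array. The summed level of that list was 19.6 and 17.8 in FBL-knock down cells, against 28.4 and 25.8 in control cells. Vim weighs most on that sum, with 3.89 and 3.70 in FBL-knock down cells, against 4.34 and 4.36 in control cells, and did not pass. The sum without Vim was not taken, so a lower level of these markers as a whole is not shown. Vim, the brightest of them, differed by −0.56 ± 0.22, and Thy1 by −0.75 ± 0.27 (limma, adjusted p = 0.142), which passed without control 2 (−1.07), under normexp (−0.91) and with a trended and robust variance prior, and was −0.43 without control 1. At its other tested probe Thy1 differed by −1.35. The part of any of these cell types in the differences of Vegfa, Kdr, Flt1 and Serpinf1 was not tested.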

How the data were processed

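Messenger RNA of 4 ES cell samples (2 FBL-knock down, 2 control) was read on single-colour Agilent arrays. Per the file headers, spot intensity was extracted with Agilent Feature Extraction, version 10.7.3.1 in the submitters' processing notes, with 45018 spots per array for 41174 probes that are not controls. The deposited table holds log2 values; of its entries, 99.8% lay within 0.01 of log2 processed signal minus 1 constant per array, which sets the 75th percentile to 0. It is neither centred by probe nor turned in direction, and its medians were -3.94 and -3.91 in FBL-knock down samples and -3.85 and -3.98 in controls.

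Probes were named through the RefSeq accession in the scanner files (GRCm38.p6 gene table), which named 24375 probes and left 16799 unnamed. Symbols can be shared by transcripts, and genes with several probes are given by probe (members) or by the brightest probe (lists). Values were fitted with limma 3.58.1 (R 4.3.3, lmFit and eBayes, two-sided, Benjamini-Hochberg over 25095 probes, threshold 0.05). The code was run on simulated data with equal noise at every probe and large differences. Such data do not measure the error of the calls given here. The number of arrays, 2 per group, limits the precision. Spots flagged as outliers (96 to 138 per array) were left out of the alternatives built from processed scanner signals, while normexp kept them. The spot summaries of Vegfa and Kdr hold all 10 spots, 1 of them flagged (Vegfa, control 1).

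Members, gene lists and motifs were chosen with earlier results of these data known. Named genes were every member by probe, Fbl, up to 3 genes per list and direction with the largest change among those that passed (or the 2 brightest where none passed), and the 5 probes nearest to Vegfa and to Serpinf1. Genes named outside this rule are marked as such. The values of 1 gene that the rule names are not reported here. Alternatives covered the source of the values, normexp, quantile normalization, the percentile over bright probes, slide and replicate blocks, leaving out each sample, no filter, the variance prior and 1 probe per gene. Promoter windows are from RefSeq. Normexp used median spot signals, with an offset of 50.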

Additional observations from a re-analysis of the deposited data

How the results depend on the processing

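Of all probes tested, 1549 passed, and the count was 1199 to 1527 with scanner signals, normexp, quantile normalization, a percentile over bright probes or 1 probe per gene. With slide as a block it was 686, with a trended and robust variance prior 2639, and with no filter on dim probes 0 (limma; 3857 had an unadjusted p under 0.05). Leaving out 1 sample gave 686 to 5330: 949 without FBL-knock down 1, 686 without FBL-knock down 2, 5330 without control 1 and 3223 without control 2. The lone sample of a group is then assumed to vary like the others. The slide block and leaving out FBL-knock down 2 are the same fit. Of the 12 member probes, 7 differed by at least 1, and 4 did under normexp and 7 to 8 when 1 sample was left out. Member differences kept their sign under all alternatives run, except the dimmer Vegfb probe without control 2. At the other 11 probes the groups did not overlap, so leaving out a sample or using the slide block could not change the sign. Of list genes, 21 passed, 10 with slide as a block, 37 with the trended prior, 0 with no filter, and 10 to 56 when 1 sample was left out. Elf5 reversed under normexp, to 0.13; the cause was not tested. Deviations of replicate 1 from the group means correlated at 0.02 between the groups over 25095 probes. Each group gives only 1 such contrast, and in FBL-knock down samples it is also a contrast between slides. It therefore cannot settle whether samples with the same replicate number were paired. The fit with a replicate block called 2269 probes and 24 list genes. The replicate block, the filter, the variance prior and the use of 1 probe per gene leave member differences as they are by construction. The 7 member probes with a difference of at least 1 under the replicate block are therefore no separate result. Signal close to background limits, among others, Flt1, the dimmer Serpinf1 probe, Pla2g4a, Cxcr4, Cxcl12, Gcm1, Elf5 and Sox7.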
